A study of Mus musculus with 4 samples.

Results

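The transcription factor genes Cebpa, Cebpb, Cebpd, Gata4, Gata6, Sall4 and Klf15 were compared between fetal and adult mouse liver cells on every array probe that carries their names. These are 7 of 30038 gene names on the array, and they were covered by 14 of 41174 probes on 23 spots. Every probe carrying 1 of these symbols was taken, whatever its values. RNA of hepatoblasts from embryonic day 13 (E13, 2 samples) and of hepatocytes from mice 8 weeks old (adult, 2 samples) had been labelled with Cy3 and hybridised to 1-colour Agilent arrays. Both groups came from liver of the C57BL/6NCr strain. Neither group carried a transgene or a treatment in the labels. How the cells were isolated, and whether a group's samples are from different animals, is not given in the sources used here. Each p-value therefore reflects the spread of these samples alone, and that spread may be technical.

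C/EBP proteins, encoded by the Cebp genes, bind DNA through a basic region and a leucine zipper as pairs of subunits. In hepatocytes they drive genes of gluconeogenesis, urea synthesis and the acute phase. Klf15 is a zinc-finger factor induced by glucocorticoids and fasting that controls amino acid breakdown. Gata4 and Gata6 are zinc-finger factors needed for the early liver bud and its surrounding mesenchyme, and Sall4 is a zinc-finger factor of embryonic stem cells and fetal liver progenitors.

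All 4 arrays lay on 1 slide with 1 scan time, and the scanner software marked between 19285 and 23760 probes per array as well above background. Signals are given as log2 values relative to the array's 75th percentile, so that 0 is the level below which 75% of an array's probes lie. Across 16422 genes tested, Pearson r was 0.991 between the E13 arrays, 0.989 between the adult arrays and 0.727 to 0.742 across the groups. The hepatocyte markers were all called higher in adult cells (12 of 12), and the fetal marker Afp read 9.25 and 9.54 on the E13 arrays and -1.68 and -1.57 on the adult arrays. Of 11 hepatoblast markers tested, 6 were called higher in E13 cells, 1 in adult cells and 4 were not called. The calls of the hepatocyte markers Apoa1, Hnf4a, Alb and Ttr were lost with spike-in scaling, those of Apoa1, Alb and Ttr also with quantile normalization, and those of Apoa1 and Ttr also with single arrays left out. Markers of other cells differed between the groups as well.

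Of the 7 genes, 5 were called higher in adult hepatocytes (Cebpb, Klf15, Cebpd, Cebpa and Gata4), Gata6 was called higher in E13 hepatoblasts and Sall4 was not called, by limma with a Benjamini-Hochberg adjusted p under 0.05 over all genes tested. The same rule called 64.8% of all genes tested, 32.1% as higher in adult and 32.7% as higher in E13 cells, so a call by itself sets none of these genes apart. In 6 of the 7 genes the groups did not overlap, against 85.8% of all genes. The median log2 difference, adult minus E13, was 1.81 over the 7 genes and -0.0084 over all genes tested. At the level of probes, 9 of the 14 were called higher in adult cells, 3 higher in E13 cells and 2 were not called. Among all 23463 probes tested 63.6% were called, 30.8% higher in adult and 32.8% higher in E13 cells, and the groups did not overlap at 85% of them, against 12 of the 14 here.

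**Figure D1:**
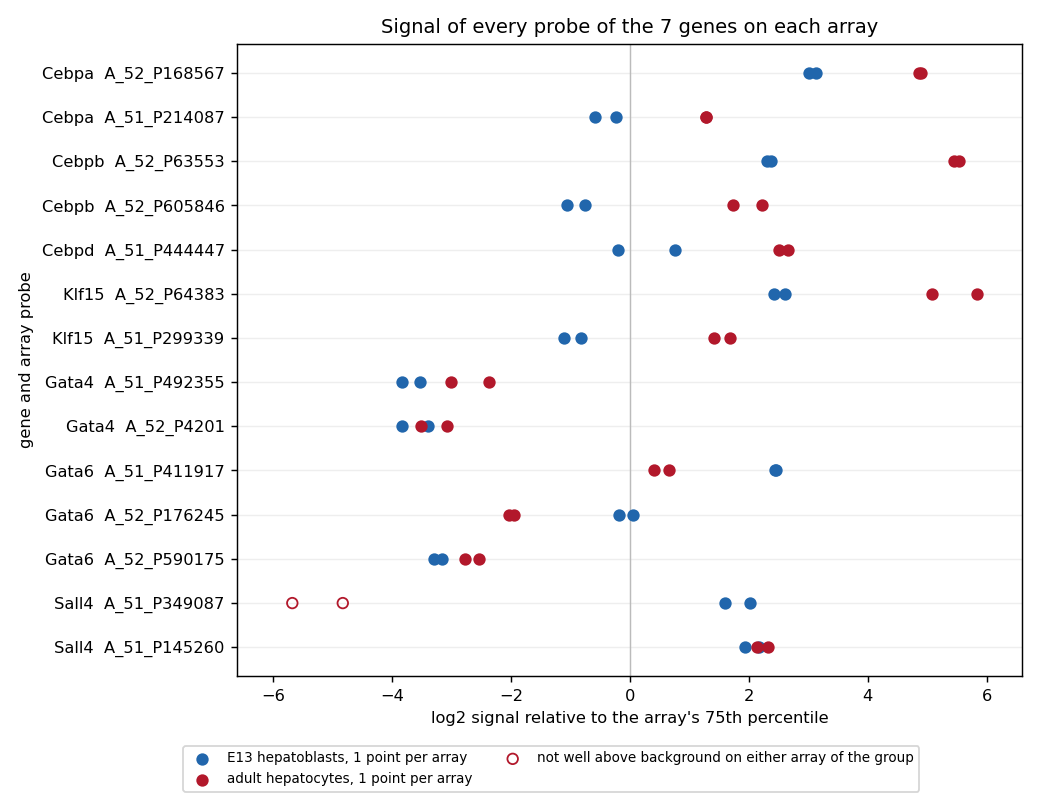
Signal (x axis, log2 minus the 75th percentile of its array) of each of the 14 probes of the 7 genes (y axis), with 1 point per array. Open points mark a group in which neither array was well above background. The groups stand apart at every probe of the Cebp genes and Klf15, and the pair of Sall4 probes shows the widest gap at 1 probe and overlapping groups at the other.

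Cebpb, a C/EBP factor responsive to cytokines and cyclic AMP, had the largest difference of the 7 genes at the probes that represent them. Its values were 2.37 and 2.31 on the E13 arrays and 5.45 and 5.54 on the adult arrays. Each group was tight, and the adult arrays lay far above both E13 arrays. The difference was 3.15 ± 0.14 (SE, n = 2 per group, adjusted p = 0.000163), or 8.89-fold. A second Cebpb probe, 537 bases upstream of the first, read -1.06 and -0.75 in E13 and 2.22 and 1.73 in adult cells, a difference of 2.88 ± 0.24 (adjusted p = 0.000668 over all probes). The probes lie at chr2:167515847-167515905 and chr2:167515309-167515368 on the plus strand of mm9, per the file headers.

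Cebpa, the C/EBP factor that keeps hepatocytes differentiated and out of the cell cycle, was already well above background in the fetal cells. It read 3.01 and 3.13 on the E13 arrays against 4.87 and 4.89 on the adult arrays. Adult arrays were higher in each pairing, and the arrays within a group lay close together. This made 1.81 ± 0.14 (SE, n = 2 per group, 95% interval 1.42 to 2.19, adjusted p = 0.00072), or 3.50-fold. The second probe lay 1156 bases upstream and read -0.58 and -0.24 in E13 and 1.28 on both adult arrays. Its difference was 1.69 ± 0.18 (adjusted p = 0.00143), and the probe was called under 16 of 17 alternatives (lowest difference 0.46). Both Cebpa probes thus gave nearly the same size. They lie at chr7:35906517-35906576 and chr7:35905361-35905420 on the plus strand of mm9. Gene models of that build were not used here, so exon and UTR are not stated for any probe.

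The upstream probes of Cebpa and Cebpb are printed to show what was hybridised, since both carry repeated leucine codons at leucine-zipper spacing. Capitals mark those codons in a reading frame without a stop codon, found by a script, and the letters are those of the array files, 5′ to 3′.
Cebpa A_51_P214087: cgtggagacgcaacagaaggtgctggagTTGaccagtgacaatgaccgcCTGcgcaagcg
Cebpb A_52_P605846: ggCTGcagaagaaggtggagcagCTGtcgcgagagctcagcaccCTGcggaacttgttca
The Cebpa probe held 2 such codons and the Cebpb probe 3. Their match to other genes was not tested.

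Cebpd, a C/EBP factor of the acute phase and of macrophages, was measured by 1 probe at chr16:15888459-15888518 of mm9. It read 0.75 and -0.20 on the E13 arrays and 2.50 and 2.66 on the adult arrays. The E13 arrays disagreed more than for any other of the 7 genes (SD 0.676, against 0.110 in adult), yet both lay below both adult arrays. The difference was 2.30 ± 0.35 (SE, n = 2 per group, 95% interval 1.38 to 3.23, adjusted p = 0.00481), or 4.94-fold. Macrophage markers moved the same way. Of 10 tested markers 8 were called higher in adult cells and 2 were not called, and their summed level, as log2 of the summed linear values, was 1.12 and 0.056 on the E13 arrays and 2.98 and 2.79 on the adult arrays. The Kupffer cell markers Clec4f and Vsig4 were at background on both E13 arrays. The calls of Cd5l and Lyz2 were lost without either adult array, and those of C1qb and Lyz2 with spike-in scaling. The gene whose 4 values followed those of Cebpd most closely, after each gene's own mean was removed, was the macrophage receptor gene Csf1r (distance 0.069 on the log2 scale, among 12761 genes above background on all arrays). Csf1r was dim in E13 cells, at -3.35 and -4.24, where the lowest signal well above background on E13 array 2 was -4.44. The next nearest to Cebpd, Stom (0.125) and Scarf1 (0.170), were not on the macrophage marker list. The part of macrophages in the Cebpd result was not tested, and in such bulk samples fewer cells of a type and less RNA per cell cannot be told apart.

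Among the other measured C/EBP genes no call was made. Cebpg, a short C/EBP protein that pairs with the others, differed by 0.20 ± 0.14 (adjusted p = 0.268). Cebpz, a distant CCAAT-binding protein, differed by 0.22, and Ddit3, the stress-induced inhibitor CHOP, by -0.38 (adjusted p = 0.0694). Thus 3 of 6 measured family genes were called higher in adult cells and none higher in E13 cells. With spike-in scaling Cebpg, Cebpz and Ddit3 were called higher in E13 cells instead.

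Genes that act on C/EBP proteins went both ways, with 5 of 17 tested called higher in adult and 4 in E13 cells (median difference -0.28, or -0.20 with bounded genes at their bound). The latter count was 2 without E13 array 1, E13 array 2 or adult array 1. With spike-in scaling 3 were called higher in adult and 12 in E13 cells (median -1.51). Higher in adult cells were Smarca2, a chromatin remodeller that C/EBP proteins recruit (2.98 ± 0.19), and the Tribbles genes Trib1 (2.87 ± 0.14) and Trib3 (2.57 ± 0.30). Trib1 is an adaptor that targets C/EBP alpha protein for degradation. Trib2, its relative, was at least 1.06-fold higher in E13 cells, a call lost when either adult array was left out and a sign turned by normexp correction. Fbxw7, a ubiquitin ligase subunit, and Gsk3b, a kinase of C/EBP proteins, were not called (-0.20 and 0.08, the sign of Gsk3b turning with spike-in scaling).

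Interleukin-6 acts on Cebpb and Cebpd through its receptor and Jak kinases. In that list, 3 of 8 genes were called higher in adult and none in E13 cells (median 0.50), but 1 and 4 with spike-in scaling (median -0.73). Il6ra, the receptor, differed by 2.49 ± 0.15 and Il6st, its signalling partner, by 1.57 ± 0.17 (not called with spike-in scaling). Jak1 (-0.34) and Jak2 (0.17, negative with spike-in scaling) were not called. With normexp correction, quantile normalization or spike-in scaling, however, Jak1 was called higher in E13 cells.

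The hepatocyte genes known as C/EBP targets were higher in adult cells in 17 of 18 tested (median 5.55, range -0.68 to 14.81). Of all genes 32.1% were called in that direction, but the list was chosen with earlier results of these data known. Many of these genes are also plain hepatocyte markers, so the count is a description only. Orm1, an acute-phase protein gene not above background in E13 cells, was at least 6024-fold higher in adult cells. Saa1, another acute-phase gene, differed by 10.62 ± 0.17, and G6pc, the last enzyme of gluconeogenesis, by 10.51 ± 0.25. Gys2, the liver glycogen synthase, was not called (-0.68, adjusted p = 0.0944). It was called higher in E13 cells with normexp correction, quantile normalization or spike-in scaling. With spike-in scaling 14 of the 18 were still called higher in adult and 1 was called higher in E13 cells.

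Klf15 had a difference close in size to that of Cebpb. Its values were 2.60 and 2.42 on the E13 arrays and 5.08 and 5.84 on the adult arrays. Both adult arrays were far above both E13 arrays, although the adult arrays differed from each other more than the E13 arrays did. The difference was 2.95 ± 0.29 (SE, n = 2 per group, 95% interval 2.17 to 3.72, adjusted p = 0.00132), or 7.72-fold. The second probe, 816 bases upstream, read -1.10 and -0.82 in E13 and 1.41 and 1.68 in adult cells, a difference of 2.51 ± 0.19 (adjusted p = 0.000518). The Klf15 probes lie at chr6:90425007-90425066 and chr6:90424191-90424250 on the plus strand of mm9.

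Of 20 genes for amino acid breakdown and urea synthesis listed as Klf15 targets, 18 were called higher in adult cells. Of all genes tested 32.1% were called in that direction. In the list 1 gene was called higher in E13 cells and 1 was not called (median 4.45). The largest were Sds, serine dehydratase (11.01 ± 0.33), and Cps1, which makes carbamoyl phosphate for the urea cycle (9.22 ± 0.55), together with Tdo2, the tryptophan-degrading enzyme, at least 1236-fold higher. Glud1, glutamate dehydrogenase, went the other way (-0.74 ± 0.20, adjusted p = 0.0285), a call lost without E13 array 1, E13 array 2 or adult array 1. Bcat2, which starts breakdown of branched-chain amino acids outside the liver, was not called (-0.07, positive after normexp correction). With spike-in scaling Bcat2 was called higher in E13 cells (-1.31). That scaling left 16 of the 20 called higher in adult and 2 in E13 cells (median 3.21). Tat, Cps1, Ass1 and Arg1 stand in the C/EBP target list as well. Tat, Cps1 and Tdo2 are also hepatocyte markers, so the count is a description only.

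Of 11 tested regulators of Klf15, 7 were called higher in adult and 1 in E13 cells (median 0.94). With spike-in scaling 2 were called each way (median -0.29). The bile acid receptor gene Nr1h4 differed by 4.10 ± 0.35, the oxysterol receptor gene Nr1h3 by 1.88 ± 0.14, and Nr3c1, the glucocorticoid receptor, by 1.51 ± 0.26 (not called with spike-in scaling). Ppargc1a, the fasting-induced coactivator, was higher in E13 cells (-1.58 ± 0.39), a call lost without either E13 array. The clock gene Arntl read 1.44 on adult array 1 and -0.96 on adult array 2 and was not called, and Per2 read -2.19 and -1.03. These clock genes thus differed more between the adult arrays than Klf15 did, and their part in the Klf15 values was not tested. In the glucocorticoid response, 6 of 11 genes were called higher in adult and none in E13 cells (median 1.46), against 4 each with spike-in scaling (median 0.23). Hsd11b1, which regenerates active glucocorticoid, differed by 10.12 ± 0.35, Tat, tyrosine aminotransferase, by 8.99 ± 0.16, and Tsc22d3 by 4.01 ± 0.17. Fkbp5 (-0.84) and Per1 (0.50, negative with spike-in scaling), which glucocorticoids also induce, were not called.

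**Figure D2:**
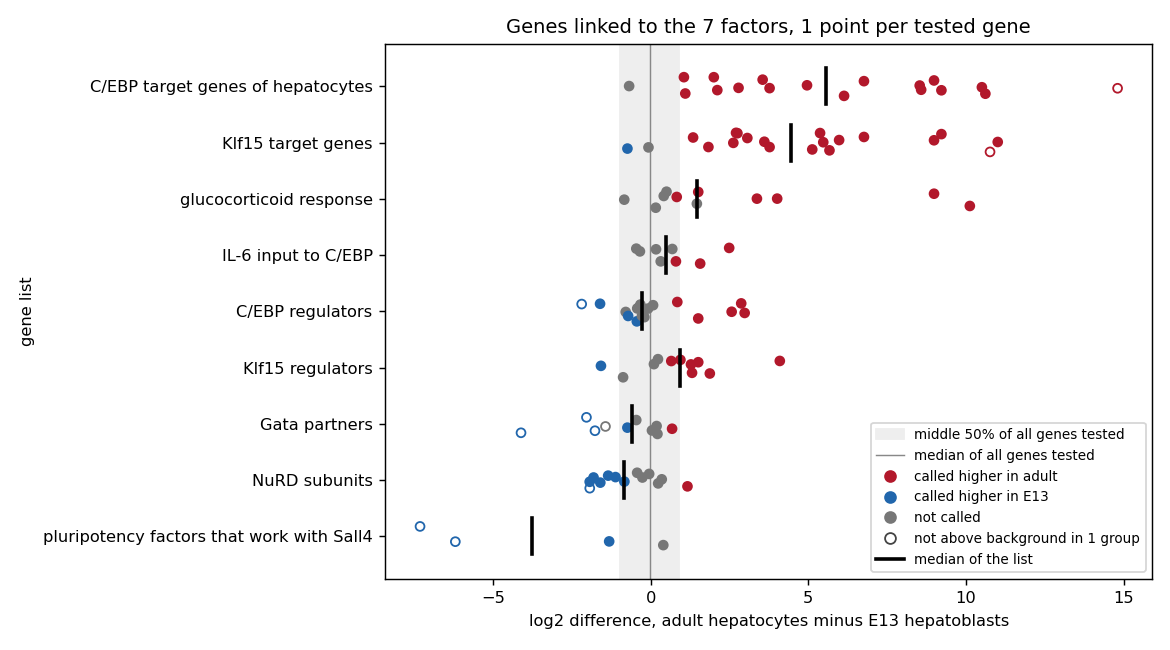
Log2 difference, adult minus E13 (x axis), of each tested gene in 9 lists linked to the 7 factors (y axis), with 1 point per gene and a black bar at the list's median. Open points are genes not well above background in 1 group, drawn at their fitted value. The medians of the C/EBP and Klf15 target lists lie to the right of the grey band, which spans the middle 50% of all genes (-0.98 to 0.90), although Gys2, Glud1 and Bcat2 lie inside it.

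The RefSeq promoter table for GRCm38.p6 held Cebpa, Cebpb and Klf15 but not the other members, and their windows are printed since these 3 genes moved together. Each is the 250 bases before the gene's start on the plus strand, from chr7:35119043-35119292, chr2:167688665-167688914 and chr6:90462326-90462575. Capitals mark TTGCG and TATAAA in Cebpa, TGACG in Cebpb (read on the other strand as CGTCA), and the E-box CACGTG, the box CCAAT and again TGACG on either strand in Klf15.
Cebpa promoter: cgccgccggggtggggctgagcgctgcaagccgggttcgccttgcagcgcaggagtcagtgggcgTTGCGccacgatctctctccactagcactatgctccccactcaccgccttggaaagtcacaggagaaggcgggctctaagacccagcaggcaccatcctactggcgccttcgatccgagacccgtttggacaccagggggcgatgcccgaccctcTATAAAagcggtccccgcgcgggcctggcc
Cebpb promoter: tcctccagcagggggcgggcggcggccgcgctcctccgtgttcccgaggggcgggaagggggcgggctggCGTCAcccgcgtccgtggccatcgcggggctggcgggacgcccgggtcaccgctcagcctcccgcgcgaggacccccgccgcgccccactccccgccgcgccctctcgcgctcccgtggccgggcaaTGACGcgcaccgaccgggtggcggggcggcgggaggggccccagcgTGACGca
Klf15 promoter: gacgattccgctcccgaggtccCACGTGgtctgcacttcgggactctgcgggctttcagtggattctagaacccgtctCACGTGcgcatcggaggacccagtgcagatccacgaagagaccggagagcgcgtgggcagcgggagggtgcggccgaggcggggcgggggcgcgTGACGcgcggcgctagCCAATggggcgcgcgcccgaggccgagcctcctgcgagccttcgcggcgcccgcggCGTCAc
All motifs were searched on both strands. TTGCG, a C/EBP core, stood 185 bases and TATAAA 30 bases before the Cebpa start. The motif TGACG, the core of a cyclic AMP response element, stood 7, 53 and 180 bases before the Cebpb start, and GGGCGG, a GC box, occurred 5 times there. In the Klf15 window CACGTG, the E-box of clock factors, stood at 172 and 228 bases, CCAAT at 62, GGGCGG at 91 and TGACG at 6 and 78. Among 32851 windows of this length the shares with a match were 14.5% for TTGCG, 12.4% for TATAAA, 17.8% for TGACG, 32.7% for GGGCGG, 6.02% for CACGTG and 33.8% for CCAAT. The longer C/EBP form TTGCNNAA (9.56% of windows) and AGATAA (9.99%), a GATA-factor motif, matched none of the 3. The windows were rich in G and C, at 66.4%, 81.6% and 72.0% against a median of 52.4%. No motif was shared by all 3 windows, and a match is a description of the letters, not a bound site.

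Gata6 was the 1 gene of the 7 called higher in the fetal cells. The probe that represents it read 2.46 and 2.43 on the E13 arrays and 0.65 and 0.40 on the adult arrays. Both E13 arrays were higher than both adult arrays, yet the adult arrays remained well above background. The difference was -1.92 ± 0.16 (SE, n = 2 per group, adjusted p = 0.000815), or 3.79-fold higher in E13 cells. A probe 20527 bases upstream on chromosome 18 read -0.18 and 0.045 in E13 and -2.03 and -1.95 in adult cells. Its difference, -1.92 ± 0.16, was the same at this precision.

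The third Gata6 probe, 30504 bases upstream of the first and with 80% G and C, gave the opposite sign at a low level. Its values were -3.29 and -3.16 in E13 and -2.54 and -2.76 in adult cells, a difference of 0.57 ± 0.17 (adjusted p = 0.0337). This call was lost without E13 array 1, E13 array 2 or adult array 1, and the probe was called under 10 of 17 alternatives, 1 of which, spike-in scaling, turned its sign (-0.66). Because of this probe, the mean over the 3 Gata6 probes was -1.09, still called higher in E13 cells.

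Gata4, the partner of Gata6 in the early liver bud, sat near the lower end of detection. Its brightest probe read -3.83 and -3.53 on the E13 arrays and -2.37 and -3.0 on the adult arrays, with scanner intensities between 33.2 and 45.6. Both adult arrays were higher, by a margin close to the gap between them. The difference was 1.00 ± 0.27 (SE, n = 2 per group, adjusted p = 0.029), or 1.99-fold. Without E13 array 1 it was 0.84 (adjusted p = 0.128), without E13 array 2 1.15 (0.0674) and without adult array 1 0.68 (0.0621), so that the call was lost each time. It was kept without adult array 2 (1.31, adjusted p = 0.0149), and spike-in scaling turned its sign (-0.24).

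The second Gata4 probe was spotted 10 times on each array and read -3.40 and -3.82 in E13 and -3.08 and -3.51 in adult cells, so the groups overlapped. It was well above background on 1 of the 2 adult arrays, and its difference was 0.32 ± 0.24 (adjusted p = 0.302, 95% interval -0.32 to 0.95). The probe's unflagged spots, 8 to 10 per array, spread by an SD of 0.098 to 0.260, which is of the size of the difference. The Gata4 probes lie on the minus strand of mm9 chromosome 14, at chr14:63817752-63817773 (a position shorter than the probe) and chr14:63818147-63818206.

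The rest of the Gata family was higher in E13 cells where it was measured. Gata3, a factor of lymphoid and many epithelial cells, was at least 5.14-fold higher in E13 cells, since no adult array was above background. Gata1, the erythroid and megakaryocytic factor, differed by -1.66 ± 0.44, a call lost without E13 array 1 or either adult array. Gata5, a close relative of Gata4 and Gata6, was called higher in E13 cells (-1.33, both adult arrays not above background, no fold given), but normexp correction turned its sign (0.47). Gata2 was not above background on any array. In all, 4 of 5 tested Gata genes were called higher in E13 and 1, Gata4, in adult cells (median -1.66, and -0.32 after normexp correction, with 2 called each way).

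Markers of the mesenchyme, where Gata4 and Gata6 are also known to act, were higher in E13 cells in 13 of 13 tested. Their summed level was 6.54 and 6.17 on the E13 arrays and 3.47 and 3.33 on the adult arrays. Of these markers 7, among them Pdgfrb, Des and Wt1, were not above background on either adult array. Normexp correction turned the sign of Des (0.27), Wt1 (0.054) and Hand2 (0.073), and their calls were lost. The calls of Alcam, Acta2, Ngfr and Hand2 were lost in fits with 1 array left out. Erythroid markers summed to 7.65 and 5.63 in E13 and 4.90 and 4.52 in adult cells (6 of 10 called higher in E13, 1 in adult). Gata1 itself is on that list and among those called. The calls of Gata1, Epor, Slc4a1 and Rhag were lost in fits with 1 array left out. Endothelial markers summed to 3.94 and 3.79 against 2.33 and 2.40 (2 of 10 called higher in E13, 3 in adult, 5 not called). The median of the endothelial differences, adult minus E13, went the other way from that sum, at 1.70. Megakaryocyte markers, which belong to a blood lineage that uses Gata1, summed to 5.44 and 4.52 on the E13 arrays and -0.65 and -0.07 on the adult arrays (7 of 7 called higher in E13). Of these 7, 4 were not above background on either adult array. The calls of Gp1bb and Vwf were lost in fits with 1 array left out, and that of Gp1bb also after normexp correction. Of all genes tested 32.7% were called higher in E13 cells. The part of any of these cell types in the Gata results was not tested.

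Cofactors of Gata proteins gave few calls, 4 of 10 tested higher in E13 and 1 in adult cells (median -0.60, or -0.32 with bounded genes at their bound, and 0.056 after normexp correction). The count in E13 cells was 2 without E13 array 1 or adult array 1, and 9 with spike-in scaling. Tal1, which binds beside Gata1 in blood cells, was at least 6.51-fold higher in E13 cells. Zfpm2, the Gata4 cofactor FOG2, was at least 1.27-fold higher, a call lost without either adult array and a sign turned by normexp correction. Zfpm1, the Gata1 cofactor FOG1, was the 1 gene called higher in adult cells (0.68 ± 0.18), a call lost without E13 array 1, E13 array 2 or adult array 1 and with its sign turned by spike-in scaling. Foxa2, a pioneer factor that opens liver enhancers with Gata4, was not called (0.19, negative with quantile or spike-in scaling).

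Sall4 gave the most discordant pair of probes among the 7 genes. Probe A_51_P145260, which represents the gene because it is the brighter, read 1.94 and 2.18 on the E13 arrays and 2.32 and 2.14 on the adult arrays. The groups overlapped. The difference was 0.18 ± 0.17 (SE, n = 2 per group, 95% interval -0.27 to 0.63, adjusted p = 0.398). Probe A_51_P349087 read 1.60 and 2.03 on the E13 arrays and -5.68 and -4.83 on the adult arrays, neither of them well above background. At this probe Sall4 was at least 38.6-fold higher in E13 cells (adjusted p = 0.000152 over all probes). On the scanner's linear scale, the E13 arrays read 1636 and 1819 there and the adult arrays 4.6 and 9.4.

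The probes lie 3839 bases apart on the minus strand of mm9, A_51_P349087 at chr2:168574333-168574392 and A_51_P145260 at chr2:168578172-168578231. A_51_P349087 is thus nearer the 3′ end of a transcript from that strand. The first 30 bases of A_51_P349087 and the whole of A_51_P145260 are printed because the Sall4 result turns on which of them is read.
Sall4 A_51_P349087: tgcgaccacccaagtattgccaggtcttaa
Sall4 A_51_P145260: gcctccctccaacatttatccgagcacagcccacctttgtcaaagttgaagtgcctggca
The deposited files give both the name Sall4. Which transcripts each of them detects was not tested, and the difference between the probes was not tested either.

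**Figure D3:**
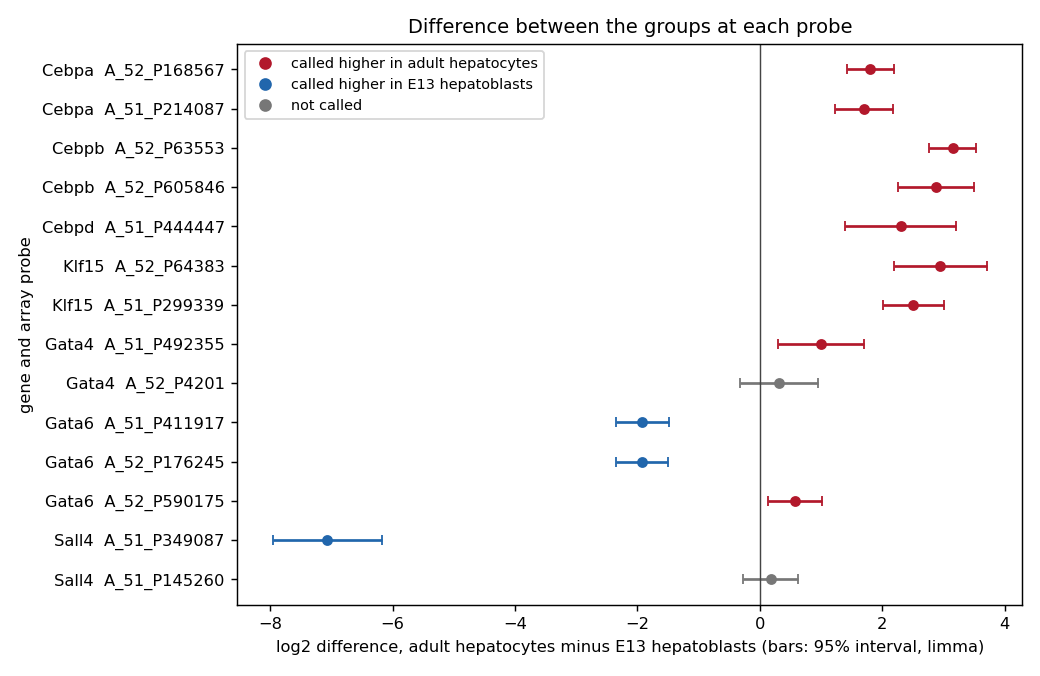
Log2 difference, adult minus E13 (x axis), at each of the 14 probes (y axis), with 95% intervals from limma. Probes of Cebpa, Cebpb and Klf15 repeat each other. 1 of the 3 Gata6 probes lies across 0 from the rest, and the Sall4 probes lie 7.24 apart in fitted values, 1 of them at a fitted value of -7.07 with its adult arrays not above background.

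Across the array such disagreement was uncommon. Of 5162 genes with several tested probes, 135 (2.62%) had probes called in both directions, as Gata6 did by the weak call above. The range of the log2 differences between probes of a gene had a median of 0.41 over these genes. Cebpa (0.11) and Cebpb (0.27) lay below that median, and Klf15 (0.44) and Gata4 (0.68) above it. The range of Gata6 was 2.50, a size reached by 265 genes. That of Sall4 was 7.24, but it rests on a fitted value at a probe not above background on either adult array, and so it is given no rank.

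Among the other Sall genes, Sall1, a factor of kidney development, differed by 0.53 ± 0.27 and was not called, with its sign turned by spike-in scaling (-0.70). Sall2 was called higher in E13 cells (-0.56 ± 0.15, adjusted p = 0.0304), a call lost without E13 array 1, E13 array 2 or adult array 2. Sall3 was not above background on any array.

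Sall proteins recruit the NuRD repressor complex, and of its 13 subunit genes tested 7 were called higher in E13 and 1 in adult cells (median -0.84), or 12 and 0 with spike-in scaling. Rbbp7, a histone-binding subunit, differed by -1.94 ± 0.18 and the deacetylase gene Hdac1 by -1.81 ± 0.14. Its relative Hdac2 was at least 2.11-fold higher in E13 cells (not called after normexp correction). Chd3, a remodelling ATPase, was higher in adult cells (1.17 ± 0.16, turning to -0.07 with spike-in scaling). Its relative Chd4 was not called (-0.26), but was called higher in E13 cells with normexp correction, quantile normalization or spike-in scaling. Of the pluripotency factors that work with Sall4, 5 did not pass the filter on dim probes and 4 were tested. Lin28b and Lin28a, which block maturation of let-7 microRNAs in fetal cells, were at least 33.7-fold and 15.2-fold higher in E13 cells. Lin28b read 1.54 and 1.70 on the E13 arrays and -5.74 and -5.65 on the adult arrays. It was thus above background in the fetal cells alone, as Sall4 was at probe A_51_P349087 and was not at A_51_P145260.

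The Klf family went both ways, with 3 of 13 tested genes called higher in adult and 4 in E13 cells (median -0.044, turning to 0.0068 with 1 array left out). With spike-in scaling the counts were 2 and 10. Klf9, a glucocorticoid- and thyroid hormone-induced factor, exceeded Klf15 in size at 5.73 ± 0.40, from -3.18 and -3.13 in E13 to 2.01 and 3.15 in adult cells. Its second probe gave 6.55 ± 0.19. Higher in E13 cells were Klf6 (-4.08 ± 0.25), Klf7 (-2.91 ± 0.14), Klf16 (-2.15 ± 0.21) and the pluripotency factor Klf4 (-1.32 ± 0.28). The Klf4 call was lost without adult array 1 and after normexp correction. Klf2, an endothelial factor, had probes called in opposite directions like Gata6, at 0.56 ± 0.17, a call lost with any array left out, and -3.60 ± 0.23. Klf5, Klf8, Klf14 and Klf17 were not tested.

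**Figure D4:**
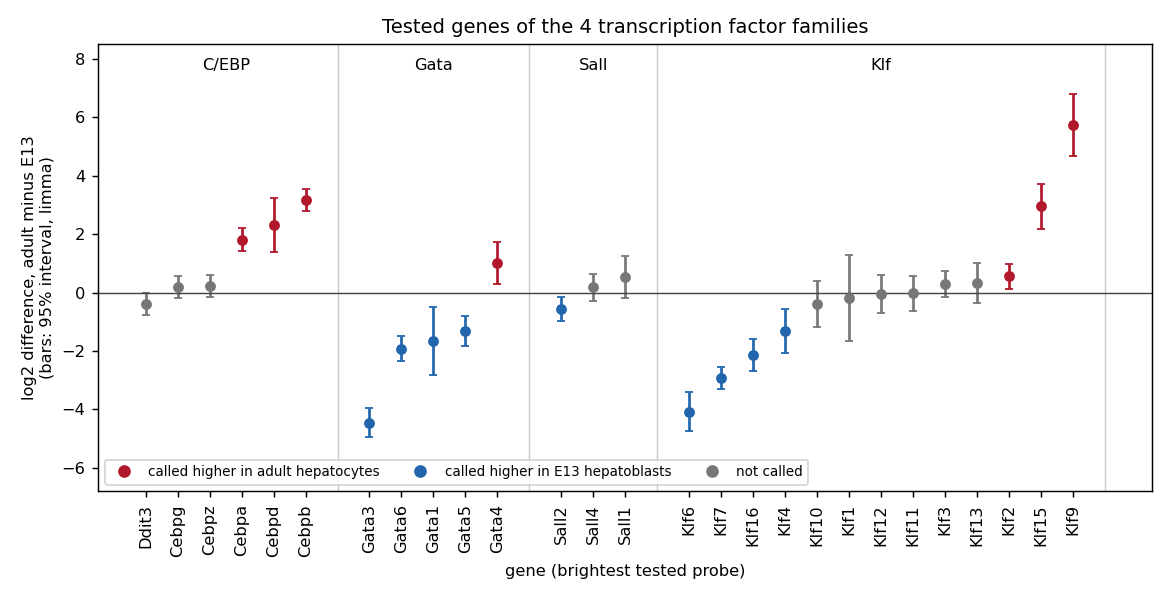
Log2 difference, adult minus E13 (y axis), of each tested gene of the C/EBP, Gata, Sall and Klf families (x axis), each at its brightest tested probe and with a 95% interval from limma. Cebpa, Cebpb and Cebpd stand above 0 within their family, Gata4 is the 1 Gata gene above 0, and Klf9 and Klf15 top the Klf genes while Klf6 is lowest.

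The genes whose 4 values were nearest to each factor were looked up among 12761 genes above background on all arrays. The nearest to Cebpb were Akr1c19 (distance 0.068), Cbs (0.093) and Ugdh (0.097). For Cebpa they were Acpl2 (0.056), an unnamed probe and 2610002I17Rik (0.079), and for Klf15 they were Zfp809 (0.078), Pcsk6 (0.105) and Oaf (0.106). Those of Gata6 were Krtcap3 (0.033) and Snx15 (0.062), and of Gata4 Fhl3 (0.043). Nearest to Sall4, at its uncalled probe, was Trpt1 (0.041). With 4 arrays such closeness is a description only.

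Calls for Cebpa, Cebpb, Cebpd, Klf15 and Gata6 were kept in direction and significance under all 19 alternatives. Their log2 differences ranged from 0.57 to 1.87 for Cebpa, 1.92 to 3.20 for Cebpb, 1.07 to 2.78 for Cebpd, 1.71 to 3.33 for Klf15 and -3.16 to -1.09 for Gata6. Gata4 was called under 11 of the 19 and Sall4 under 3. The lowest value of each gene but Sall4 came from scaling to spike-in RNA, which moved the median of all genes to -1.24. Relative to that median each gene kept, by construction, the difference it had before.

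**Figure D5:**
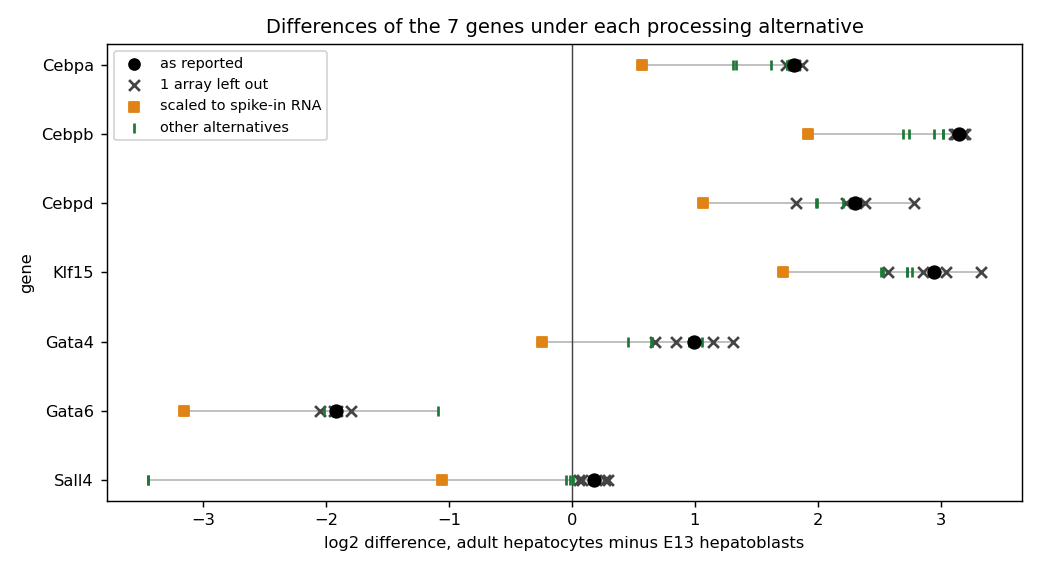
Log2 difference, adult minus E13 (x axis), of the 7 genes (y axis) as reported (black) and under each of 19 processing alternatives. The Cebp genes and Klf15 stay right of 0 and Gata6 stays left of it, whereas Gata4 crosses 0 with spike-in scaling and Sall4 spreads from -3.44, the mean of its probes, to 0.30.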

How the data were processed

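The authors deposited 1 scanner file per array, made with Agilent Feature Extraction 10.7.3.1, whose processed intensity is background-subtracted per the file headers, and a table of log2 values. These deposited log2 values equal the log2 intensity minus a constant per array (Pearson r = 1). Values here are the log2 processed signal, averaged over spots, minus the array's 75th percentile over 41174 probes; 1639 control spots and 18 outlier-flagged probes were left out. Probes well above background on both arrays of 1 group were tested with limma 3.58.1 (lmFit, eBayes; R 4.3.3), 23463 in all, and genes at their brightest tested probe. Fits over probes were adjusted apart from those over genes. "At least" folds set the bright group against, per dim array, the higher of the probe and the lowest signal well above background. "Not called" means an adjusted p of 0.05 or more. The fit was checked on simulated data. The members and gene lists were chosen with earlier results of these data known, and some genes stand in several lists, so they are not independent evidence. List genes named are among the 3 with the largest called difference in the more frequent direction, the 1 in the other and the first 2 uncalled, and some genes chosen so are not reported here. Likeness is Euclidean distance. Whether equal replicate numbers in the labels mark paired samples is not given, and the main fit did not pair them. The correlation of same-numbered deviations was -0.156, which cannot decide this with 2 arrays per group. Probe positions are on mm9 per the file headers. Promoters are from RefSeq, and protein sequences were not used here. The number of arrays, 2 per group, limits the precision. The 19 alternatives covered background correction, normalization, the deposited values, the filter on dim probes, probe summaries, eBayes with trend, thresholds, blocks and leaving out each array.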

Additional observations from a re-analysis of the deposited data

How the results depend on the processing

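Besides the alternatives that leave out an array, the direction and call of Cebpa, Cebpb, Cebpd, Klf15 and Gata6 held under each setting run. Gata4 was -0.24 with spike-in scaling, 0.66 as the mean and as the median of its probes (not called) and, at 1.00, no longer called with an adjusted p under 0.01 or with a 2-fold minimum. Leaving out 1 array gave 0.68 to 1.31. Sall4 was -0.015 with normexp correction, -0.046 with normexp and quantile, -1.06 with spike-in scaling and -3.44 as the mean or median of its probes, the last 3 called. Spike-in scaling gave 2006 genes called higher in adult and 11272 in E13 cells, against 5269 and 5374, normexp gave 6658 and 4527, and no filter on dim probes gave 14622 and 5483. The median of all genes moved to 0.21 with normexp, -0.12 with quantile and -1.24 with spike-in scaling. The cause of these shifts was not tested.

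Single values that changed sign are listed here for the members and their families only. With spike-in scaling they were Cebpg (-1.03), Cebpz (-1.02), Klf13 (-0.91), Klf3 (-0.96), Klf2 (-0.68), Sall1 (-0.70), the Gata4 probes (-0.24 and -0.92), the third Gata6 probe (-0.66) and Sall4 probe A_51_P145260 (-1.06). That Sall4 probe was -0.015 with normexp and -0.046 with normexp and quantile. With normexp Gata5 was 0.47 and Klf11 0.27. With quantile Klf11 was 0.066 and Klf2 -0.060, and Klf2 was -0.074 with both. As the mean or median of probes Klf2 was -1.52, and Cebpg -0.069 as the mean. With 1 array left out, Klf1 ranged from -0.97 to 0.61, Klf10 from -0.77 to 0.0017, Klf11 from -0.27 to 0.22 and Klf12 from -0.36 to 0.27. With the replicate block 4693 and 4840 genes were called, and none of the 5 stable genes lost its call. A crossed pairing, added after the data were examined, gave 5350 and 5433. Slide and scan could not be blocked, since the arrays share 1 slide and 1 scan.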
